A study of Mus musculus with 32 samples.

Results

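The genes of glycolysis and pyruvate metabolism were followed through 32 bulk RNA-seq libraries of sorted mouse lung tumor cells in which *Lkb1* (*Stk11*) was wild-type, inactivated or restored. The 40 genes were chosen by name as the enzymes from hexokinase to lactate dehydrogenase, the fructose 2,6-bisphosphate enzymes, the pyruvate carrier, the pyruvate dehydrogenase complex with its regulators, and the gluconeogenic and glycerol phosphate enzymes, and all 40 were found among the 53558 genes of the tables.

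Glycolysis splits glucose into pyruvate in the cytosol and yields ATP and NADH without oxygen. Pyruvate is either reduced to lactate by lactate dehydrogenase or carried into mitochondria and oxidized by pyruvate dehydrogenase, which its kinases switch off by phosphorylation. Many of these genes are known targets of the hypoxia-inducible factors and MYC, and LKB1 is the kinase that activates AMPK, a sensor of energy shortage that can act on the same pathway.

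All tumors carried KrasLSL-G12D and Rosa26LSL-tdTomato and were started by Lenti-Cre given into the trachea, and the tdTomato-labelled neoplastic cells were sorted away from cells bearing CD45, CD31, F4/80 or Ter119. KT tumors (4 libraries, 2 of them female, untreated) carried no further allele. Non-restored tumors (10 libraries, 7 female) were Lkb1XTR/XTR, an allele that Cre switches off with a gene trap; 6 of these libraries came from mice with FLPo-ERT2 at Rosa26 given vehicle, and 4 from mice without FLPo-ERT2 given tamoxifen. Restored tumors (7 libraries, all female) were Lkb1XTR/XTR with FLPo-ERT2 and received tamoxifen, in 4 mg doses over 2 weeks, which lets the recombinase remove the trap. These 3 groups were collected 24 to 27 weeks after initiation. The paper states a lower Lenti-Cre dose for the KT mice than for the non-restored and restored mice. In comparisons with KT, dose and *Lkb1* status therefore cannot be told apart. Trp53-deficient tumors were Lkb1XTR/XTR and also Trp53flox/flox. Their 7 non-restored libraries came from 4 animals (5 libraries with FLPo-ERT2 given vehicle, 2 without FLPo-ERT2 given tamoxifen). Their 4 restored libraries, all female, carried FLPo-ERT2 and were given tamoxifen. Both Trp53-deficient groups were treated for 2 weeks and collected 16 to 19 weeks after initiation. *Trp53* status and the weeks of growth therefore cannot be told apart. All restored libraries were female, and each comparison was also made in female libraries alone. Of the 7 Trp53-deficient non-restored libraries 4 were female, so fewer than the 4 animals of that group remained in its female comparison.

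Levels are given as CPM (counts scaled to a common library size) on 1 scale for all libraries, and as TPM, which take transcript length into account, where genes are compared with each other. The libraries held 1302482 to 5943951 expected counts, so that 3 counts stood for 0.505 to 2.3 CPM; the KT libraries were among the shallowest (1302482 to 2649449). *Stk11* lay between 0 and 1.07 CPM in the non-restored libraries, between 11.5 and 22.3 in the restored ones and between 16.5 and 27.1 in KT, and *Trp53* was at most 6.48 CPM in the Trp53-deficient libraries against at least 11.8 elsewhere, as the labels have it. Markers of the tumor epithelium (8 genes, *Sftpc* and *Epcam* among them) summed to 7024 to 59903 CPM, against 6.38 to 114 for 7 hematopoietic, 1.11 to 92.8 for 5 endothelial, 1.99 to 1097 for 5 fibroblast, 3.08 to 231 for 3 airway and 0 to 6.95 for 4 red blood cell markers. *Cd3e*, the T-cell marker, was at 0 in every group apart from 1 or more non-restored libraries, where it reached 0.533. The study describes fewer mice than it has libraries, so libraries with different titles may share a mouse, while the tests treat them as independent; outside the Trp53-deficient non-restored group, whose libraries were summed per animal, p-values measure the spread between libraries.

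The promoters of the enzymes that the comparisons below turn on are printed first, since glycolysis genes are known for hypoxia response cores and E-boxes near their starts. Each is the RefSeq sequence (GRCm38.p6) from 250 bases before to 50 bases after an annotated start, 5′ to 3′ on the gene's strand. Capitals mark, on either strand, ACGTG and GCGTG (the hypoxia response core), CACGTG (the E-box, which holds ACGTG on both strands) and TGACGTCA (the cAMP response element). *Pfkp* lies on the minus strand (chr13:6648722-6649021), *Aldoa* on the minus strand (chr7:126800398-126800697), *Eno1* on the plus strand (chr4:150236458-150236757), *Ldha* on the plus strand (chr7:46845554-46845853) and *Ldhb* on the minus strand (chr6:142507908-142508207).
Pfkp: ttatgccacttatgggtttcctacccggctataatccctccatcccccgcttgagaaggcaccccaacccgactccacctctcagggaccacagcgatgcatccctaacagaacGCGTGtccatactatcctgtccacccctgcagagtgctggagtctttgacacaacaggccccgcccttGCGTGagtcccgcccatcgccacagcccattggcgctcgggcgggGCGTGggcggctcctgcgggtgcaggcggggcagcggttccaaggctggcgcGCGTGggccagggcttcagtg
Aldoa: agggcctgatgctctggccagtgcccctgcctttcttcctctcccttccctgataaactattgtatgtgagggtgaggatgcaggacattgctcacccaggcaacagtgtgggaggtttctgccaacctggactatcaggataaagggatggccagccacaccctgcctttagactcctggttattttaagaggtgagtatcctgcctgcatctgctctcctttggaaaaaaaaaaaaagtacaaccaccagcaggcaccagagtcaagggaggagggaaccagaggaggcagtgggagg
Eno1: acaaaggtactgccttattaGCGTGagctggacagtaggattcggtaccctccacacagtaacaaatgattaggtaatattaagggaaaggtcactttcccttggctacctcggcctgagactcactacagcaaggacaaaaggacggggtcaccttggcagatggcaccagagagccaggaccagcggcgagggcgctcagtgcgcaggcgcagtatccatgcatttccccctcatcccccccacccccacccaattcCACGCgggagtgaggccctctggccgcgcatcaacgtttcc
Ldha: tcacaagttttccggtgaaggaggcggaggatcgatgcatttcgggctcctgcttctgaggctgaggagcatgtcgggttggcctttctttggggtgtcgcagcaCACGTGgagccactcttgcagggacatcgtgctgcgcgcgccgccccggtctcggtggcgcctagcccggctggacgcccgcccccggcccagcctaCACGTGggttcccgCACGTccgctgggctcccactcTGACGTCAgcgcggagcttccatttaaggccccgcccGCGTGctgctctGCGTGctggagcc
Ldhb: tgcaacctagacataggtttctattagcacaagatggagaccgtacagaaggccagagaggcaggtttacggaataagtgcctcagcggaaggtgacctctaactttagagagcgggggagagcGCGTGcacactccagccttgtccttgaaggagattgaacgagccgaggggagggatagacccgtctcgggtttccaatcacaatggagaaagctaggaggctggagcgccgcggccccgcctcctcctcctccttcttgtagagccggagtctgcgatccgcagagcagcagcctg
The *Ldha* window held 2 E-boxes, 1 cAMP response element and 7 hypoxia cores when those within the E-boxes were counted on both strands. *Pfkp* held 4 cores, all GCGTG, *Eno1* held 2, *Ldhb* held 1 and this *Aldoa* start held none. *Aldoa* had 3 annotated starts, and ACGTG occurred in the window of another of them. Of the 40 genes, 38 had an entry in the promoter table and together 60 starts; ACGTG or GCGTG occurred in 68.3% of these 60 windows and in 43.8% of all 32851 windows of the table, and CACGTG in 11.7% against 7.15%. The GC content of the windows differed as well, with a median of 60.5% for the members and 52.7% for all, and its part in the motif shares was not tested. A match is a run of letters, and no binding was measured here.

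By length-adjusted level the pathway was uneven. *Ldha*, which reduces pyruvate to lactate, was the most abundant member with a median of 979 TPM over the 32 libraries, ahead of *Gapdh* (686 TPM), *Aldoa*, the aldolase of most tissues (365 TPM), and the pyruvate carrier subunits *Mpc2* and *Mpc1* (351 and 255 TPM). The phosphofructokinase genes stood far lower, at 13.4 TPM each for *Pfkl* and *Pfkp* and 2.94 TPM for *Pfkm*. *Pfkfb1* and *Eno2*, the neuronal enolase, had 84 and 31 counts over all libraries and did not pass the filter on low counts, so 38 of the 40 genes were tested. The neighbours *Pfkl* and *Pfkp* were level with each other in this order, and the range of *Mpc2* (168 to 466 TPM) lay within that of *Aldoa* (167 to 794 TPM).

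The first question was how *Lkb1* loss and *Lkb1* wild-type tumors differ. Relative to KT, non-restored tumors carried more mRNA of 4 enzymes of the glycolytic trunk, *Pfkp*, *Aldoa*, *Eno1* and *Ldha*, and less of 5 others, *Pfkfb3*, *Ldhb*, *Mpc1*, *Pdhb* and *Pck2*. These 9 of 38 tested members passed an adjusted p of 0.05 in the edgeR quasi-likelihood test, where 5.86% of all 12636 genes tested did (2.38% higher and 3.48% lower). In bulk libraries, fewer cells with a transcript and less transcript per cell cannot be told apart. The median log2 difference of the 38 members was 0.16, and that of all genes 0.03; 19 members were at an unadjusted p below 0.05, as were 20.8% of all genes.

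At the phosphofructokinase step, which commits sugar to glycolysis, the platelet-type isozyme *Pfkp* (chr13:6579768-6648777, minus strand) differed most. It measured 8.85, 4.96, 13.4 and 11.9 CPM in the KT libraries and 19.2 to 59.9 CPM, with a median of 34.5, in the non-restored ones. Every non-restored library lay above every KT library. The log2 difference was 1.83 (SE 0.33, edgeR adjusted p = 0.00182, 3.55-fold), and it passed in each of 24 alternative analyses. Ranges of the groups failed to overlap in 3.88% of all genes, 1.51% with non-restored higher and 2.37% lower, and in 4 of the 38 members, 2 in each direction. The other isozymes did not pass: *Pfkl*, the liver type, differed by 0.65 (SE 0.28, adjusted p = 0.179) and *Pfkm*, the muscle type, by -0.84 (SE 0.37, adjusted p = 0.196).

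The share of each isozyme in the summed phosphofructokinase TPM describes the same libraries per length. *Pfkp* made up 13.9% to 33.9% of it in KT and 33.8% to 56.8% in non-restored libraries (medians 25.8% and 45.7%), and *Pfkm* 18.2% to 26.6% and 1.97% to 16.7% (medians 23.7% and 8.11%). The *Pfkm* shares of the groups did not overlap, and those of *Pfkp* met only at their edges. *Pfkm* rested on 7 to 26 counts in KT and 6 to 35 in non-restored libraries. Its CPM ranges overlapped (5.79 to 12.4 and 1.62 to 7.87). Shares within a family are tied, so that more *Pfkp* by itself lowers the share of *Pfkm*. *Pfkl* held 44.1% to 61.2% in KT and 38.3% to 57.9% in non-restored libraries. These shares were not tested.

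*Pfkfb3* (chr2:11471433-11554077, minus strand) makes fructose 2,6-bisphosphate, the activator of phosphofructokinase, and moved the other way. It measured 63.3, 33.9, 110 and 30.5 CPM in KT and 10.3 to 29.1 CPM, with a median of 17.9, in non-restored libraries. All 10 non-restored libraries lay below the lowest KT library, although the KT libraries themselves spanned 30.5 to 110. *Pfkfb3* fell by 1.70 on the log2 scale (SE 0.31, edgeR adjusted p = 0.00221, 3.24-fold lower), and it passed in each of the 24 alternatives. The related *Pfkfb2* and *Pfkfb4* differed by -0.33 (SE 0.15, adjusted p = 0.219) and -0.26 (SE 0.30, adjusted p = 0.664).

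**Figure D1:**
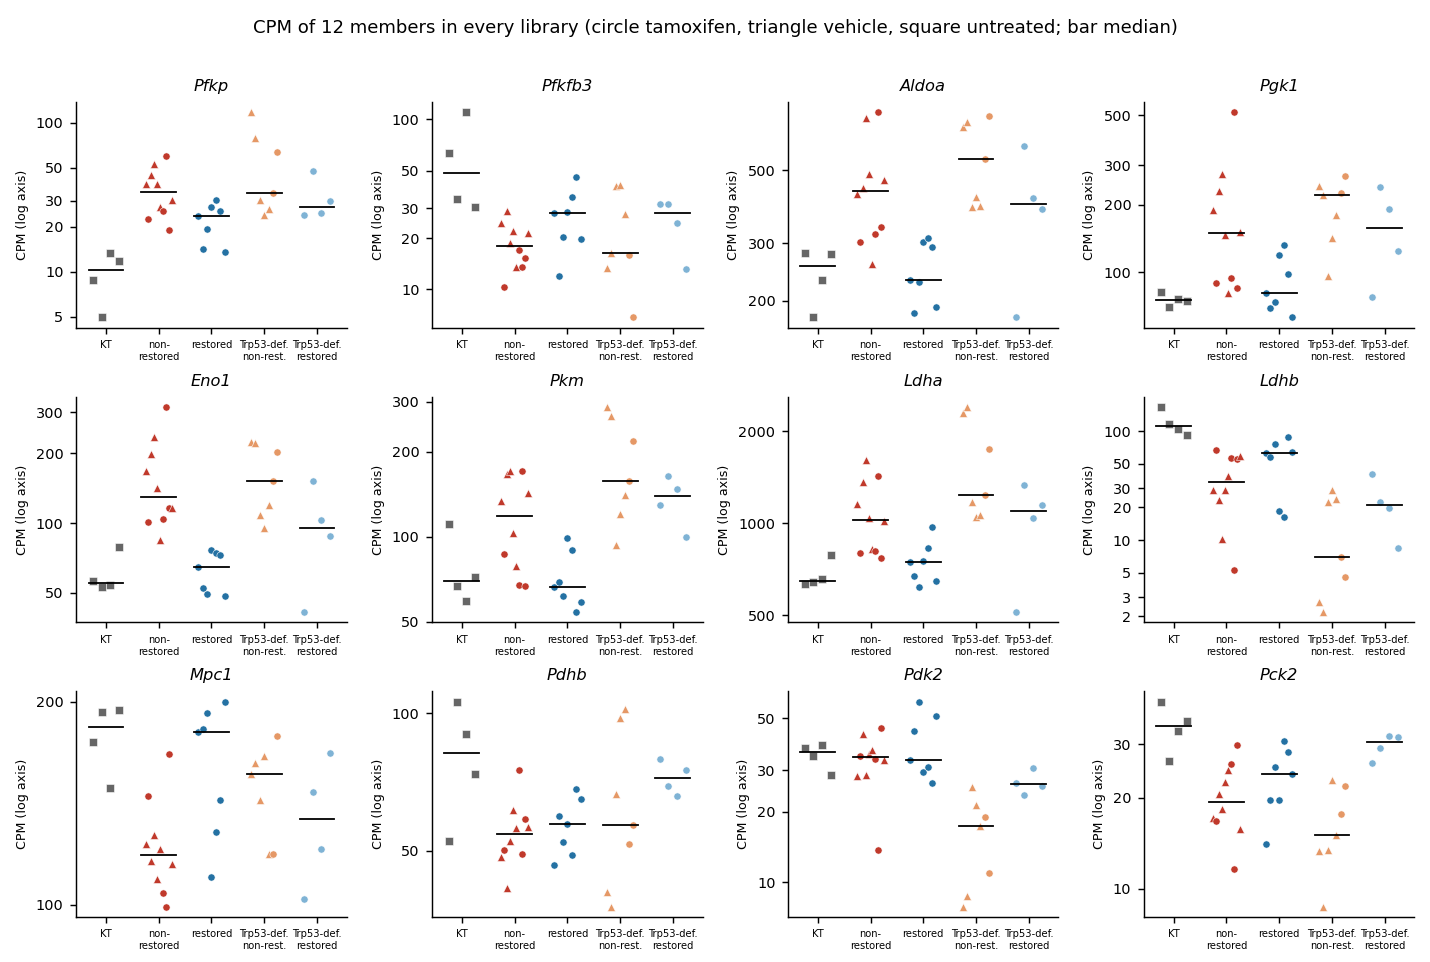
CPM (log axis) of 12 members in each of the 32 libraries, by group; circles are tamoxifen, triangles vehicle and squares untreated libraries, and bars are medians over libraries. *Pfkp* and *Eno1* of all 10 non-restored libraries lie above the 4 KT libraries, *Pfkfb3* and *Ldhb* below them, and *Eno1* of the 7 restored libraries (at most 76.7 CPM) lies below the non-restored ones (at least 84.7 CPM).

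In the aldolase and triose steps, *Aldoa* (chr7:126795234-126800751, minus strand) measured 280, 178, 232 and 278 CPM in KT and 259 to 752 CPM, with a median of 434, in non-restored libraries. Of the 10 non-restored libraries 9 lay above the highest KT library. *Aldoa* rose by 0.90 (log2, SE 0.25, edgeR adjusted p = 0.0364), passing in 16 of 24 alternatives, and it did not pass without any 1 of the 4 KT libraries (adjusted p up to 0.141 over the alternatives). *Aldoc*, its brain-type isozyme, differed by 0.06 (SE 0.28) and supplied a median of 3.04% of aldolase TPM in KT and 1.63% in non-restored libraries.

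In lower glycolysis, which harvests ATP, all 6 tested genes had a higher mean in non-restored tumors and 1 passed, *Eno1* (chr4:150236721-150248879, plus strand), the enolase that makes phosphoenolpyruvate. It measured 56.5, 52.9, 54.3 and 78.7 CPM in KT and 84.7 to 316 CPM, with a median of 129, in non-restored libraries. The 2 groups did not overlap. *Eno1* rose by 1.37 (log2, SE 0.30, edgeR adjusted p = 0.00743), in 23 of 24 alternatives; with female libraries alone the adjusted p was 0.054. Near-identical copies of *Eno1*, chiefly *Eno1b*, took 32.3% of the counts of the gene and its copies together, so its level depends on how reads were shared out. *Pgk1* and *Pkm* were singled out after their values were seen: *Pgk1* differed by 1.29 (SE 0.42, adjusted p = 0.075) and *Pkm* by 0.62 (SE 0.27, adjusted p = 0.188).

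At lactate dehydrogenase the 2 subunit genes went in opposite directions. *Ldha* (chr7:46841475-46855627, plus strand) measured 633, 644, 656 and 787 CPM in KT and 773 to 1612 CPM, with a median of 1030, in non-restored libraries, 9 of which lay above the highest KT library. It rose by 0.67 (log2, SE 0.19, edgeR adjusted p = 0.0375, passing in 15 of 24 alternatives). *Ldha* did not pass without any 1 of the 4 KT libraries or in female libraries alone (adjusted p up to 0.228 over the alternatives). *Ldhb* (chr6:142490249-142507957, minus strand), whose subunit favours the oxidation of lactate, measured 167, 117, 105 and 93 CPM in KT and 5.34 to 66.8 CPM, with a median of 34, in non-restored libraries. All 10 lay below KT. *Ldhb* fell by 1.70 (log2, SE 0.47, edgeR adjusted p = 0.0373), and passed in 13 of 24 alternatives, losing the threshold without any 1 of the KT libraries. Per length, *Ldhb* supplied 22.8% to 37% of the summed *Ldha* and *Ldhb* TPM in KT and 0.697% to 16.5% in non-restored libraries.

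Among the genes that take pyruvate into mitochondria, *Mpc1* (chr17:8282904-8297661, plus strand), a carrier subunit, measured 174, 193, 149 and 194 CPM in KT and 99.3 to 167, with a median of 118, in non-restored libraries. *Mpc1* fell by 0.54 (log2, SE 0.15, edgeR adjusted p = 0.0355), and 9 of 10 non-restored libraries lay below KT. Its partner *Mpc2* differed by -0.39 (SE 0.13, adjusted p = 0.09). *Pdhb* (chr14:8165996-8173025, minus strand), a subunit of pyruvate dehydrogenase, measured 52.4, 106, 89.9 and 73.5 CPM in KT and 41.4 to 74.9, with a median of 54.2, in non-restored libraries, and fell by 0.55 (SE 0.16, adjusted p = 0.0375) with the ranges overlapping. The other 4 genes of that complex did not pass; *Pdha1*, which pairs with *Pdhb*, differed by 0.19 (SE 0.15, adjusted p = 0.513). *Pck2* (chr14:55540266-55551242, plus strand), the mitochondrial enzyme that turns oxaloacetate into phosphoenolpyruvate, measured 41.5, 26.5, 33.2 and 35.8 CPM in KT and 11.6 to 29.9, with a median of 19.4, in non-restored libraries. *Pck2* fell by 0.75 (SE 0.21, adjusted p = 0.0375), with 9 of 10 libraries below KT. *Mpc1*, *Pdhb* and *Pck2* passed in 13, 12 and 11 of the 24 alternatives.

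None of the 3 hexose phosphorylation, 5 kinase and phosphatase or 3 glycerol phosphate genes passed between non-restored and KT tumors. *Hk2*, named after its values were seen, differed by -0.58 (SE 0.22, adjusted p = 0.132). Fibroblast markers summed to 12.2 to 64.9 CPM in KT and 5.8 to 334 in non-restored libraries, endothelial ones to 7.7 to 18.2 and 1.16 to 92.8, and their part in these results was not tested. Neither list held a gene that passed. All 5 tested fibroblast and all 4 tested endothelial markers had positive differences, with median log2 differences of 1.51 and 1.64, against 0.03 for all genes.

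The second question was how tumors with *Lkb1* restored for 2 weeks differ from those without. In restored against non-restored tumors 2 of 38 members passed, both lower, *Eno1* and *Aldoa*, where 1.87% of the 12636 genes passed, 0.973% higher and 0.894% lower. This comparison and the former share the 10 non-restored libraries, so a high or low value there enters both. The median log2 difference was -0.10 for the members and -0.01 for all genes. At an unadjusted p below 0.05 stood 17 members, 15 lower and 2 higher, against 15.1% of all genes. By step, these were 2 of 3 hexose phosphorylation, 2 of 3 phosphofructokinase, 2 of 3 aldolase and triose, 5 of 6 lower glycolysis 1 of 2 lactate dehydrogenase, 1 of 5 pyruvate dehydrogenase complex (*Dlat*), 1 of 5 kinase and phosphatase (*Pdk4*) and 1 of 3 gluconeogenic genes (*Fbp1*) with lower values in restored tumors, and both subunits of the pyruvate carrier with higher values.

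*Eno1* measured 48.3 to 76.7 CPM, with a median of 64.5, in the 7 restored libraries, against 84.7 to 316 in the 10 non-restored ones. No restored library reached the lowest non-restored one, which 0.57% of all genes did in either direction and 0.23% with restored lower. *Eno1* fell by 1.33 on the log2 scale (SE 0.23, edgeR adjusted p = 0.00364, 2.52-fold lower), and it passed in each of 27 alternatives, with differences from -1.49 to -1.16 and adjusted p from 3.9e-06 to 0.0466. Counted together with its copies it differed by -1.20 (adjusted p = 0.0102).

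*Aldoa* measured 184 to 310 CPM, with a median of 231, in restored libraries, 4 of which lay below the lowest non-restored library (259 CPM). It fell by 0.86 (log2, SE 0.20, edgeR adjusted p = 0.0264, 1.82-fold lower). It passed in 22 of 27 alternatives; without restored replicate 1, 2, 3 or 7, or with tamoxifen-treated libraries alone, it did not, with adjusted p up to 0.186.

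Other glycolytic genes did not pass. With *Eno1* and *Aldoa* included, median log2 differences were -0.32 for hexose phosphorylation and -0.54 for phosphofructokinase genes. They were -0.76 for aldolase and triose and -0.73 for lower glycolysis genes, and 0.37 for the fructose 2,6-bisphosphate enzymes. Within these steps *Pfkm* stood at 0.07 (SE 0.31) and *Aldoc* at 0.01 (SE 0.22). *Ldha* measured 620 to 970 CPM, with a median of 747, in restored libraries, 5 of which lay below the lowest non-restored library, and differed by -0.53 (SE 0.15, 95% interval -0.83 to -0.23, adjusted p = 0.0799). *Pkm*, the pyruvate kinase, differed by -0.74 (SE 0.22, adjusted p = 0.0885), *Pgk1* by -1.03 (SE 0.33, adjusted p = 0.126) and *Pfkp* by -0.71 (SE 0.24, adjusted p = 0.147). DESeq2, and the fit with vehicle libraries as the only non-restored ones, each called *Ldha*, *Pkm* and *Pgk1* as well, for 5 members in all, and the tamoxifen-only fit called *Eno1* alone.

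Of the 38 members 16 had positive and 22 negative differences; the 3 tested fructose 2,6-bisphosphate enzymes and both carrier subunits were positive, and 4 of 5 pyruvate dehydrogenase complex genes negative. *Mpc1* measured 110 to 200 CPM, with a median of 180, in restored libraries, 4 of them above the highest non-restored library, and differed by 0.40 (SE 0.13, adjusted p = 0.11). *Mpc2* differed by 0.25 (SE 0.11, adjusted p = 0.299), *Pfkfb3* by 0.55 (SE 0.27, adjusted p = 0.352) and *Ldhb* by 0.56 (SE 0.42, 95% interval -0.26 to 1.37). *Ldhb* took 3.94% to 20.4% of lactate dehydrogenase TPM in restored libraries, with a median of 15.2%, between the medians of non-restored (8.46%) and KT libraries (26.7%), and its range overlapped that of the non-restored ones. *Pdk4*, a kinase that shuts pyruvate dehydrogenase, varied widely among libraries, from 0.464 to 66.7 CPM in non-restored and 0.856 to 18.6 in restored tumors, and its difference of -1.46 (SE 0.67) did not pass.

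**Figure D2:**
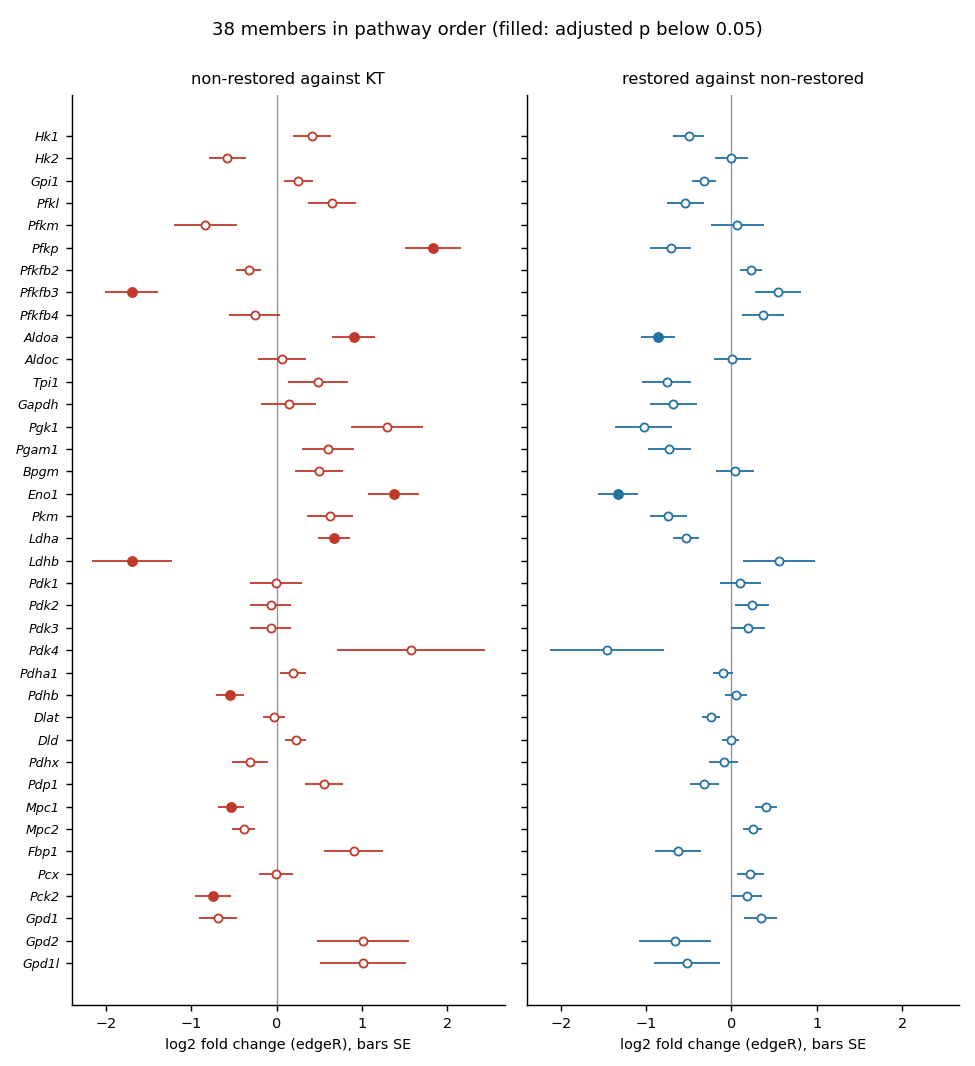
Log2 differences (edgeR) with bars of 1 SE for the 38 tested members, in pathway order, for the comparisons of KT, non-restored and restored tumors named above the panels; filled points passed an adjusted p of 0.05. Non-restored against KT, 9 members passed (4 higher, 5 lower), and restored against non-restored, *Eno1* (-1.33) and *Aldoa* (-0.86), both lower; these comparisons share the non-restored libraries.

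Levels differed between the arms of the non-restored group, without a test. *Eno1* ranged from 84.7 to 234 CPM, with a median of 155, in the 6 vehicle libraries. In the 4 tamoxifen libraries it ranged from 101 to 316, with a median of 110. *Pkm* had medians of 139 and 77 CPM in these arms, against 66.5 in restored libraries. *Ldha* had 1098 and 809, against 747, and *Aldoa* 456 and 328, against 231. Medians of *Hk2* (90.2 and 101) and *Ldhb* (28.7 and 56.2) were higher in the tamoxifen arm. Neither arm shared both FLPo-ERT2 and tamoxifen with the restored mice, and the part of either was not tested. Non-restored replicate 8, a tamoxifen library, was the highest of its group for 14 and the lowest for 11 of the 38 members, and was the top value of *Eno1*, *Aldoa* and *Pgk1*. Without it *Eno1* differed by -1.16 between restored and non-restored tumors and still passed. The same library was the lowest of its group for *Ldhb* (5.34 CPM). Tumor epithelium markers summed to 7024 to 43793 CPM in non-restored and 26223 to 59903 in restored libraries, hematopoietic ones to 6.38 to 60.4 and 7.9 to 114, and fibroblast ones to 5.8 to 334 and 20.7 to 206; their part in the differences was not tested.

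Restored tumors were also set against KT, which share the restored libraries with the previous comparison and the KT libraries with the first. No member passed, where 0.459% of all genes did; DESeq2 called none of the members either, and 6 members were at an unadjusted p below 0.05, against 10.5% of all genes. *Pfkp* was above KT in all 7 restored libraries (13.7 to 30.1 against 4.96 to 13.4 CPM) and differed by 1.12 (SE 0.34, 95% interval 0.47 to 1.78, adjusted p = 0.17). *Ldhb* and *Hk2* of all 7 lay below KT, with differences of -1.14 (SE 0.52, adjusted p = 0.445) and -0.59 (SE 0.24, adjusted p = 0.371). Groups failed to overlap in 3 of 38 members and in 2.75% of all genes (1.17% higher and 1.57% lower in restored tumors). *Eno1* and *Aldoa* differed from KT by 0.04 (95% interval -0.53 to 0.62) and 0.03 (95% interval -0.46 to 0.53).

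**Figure D3:**
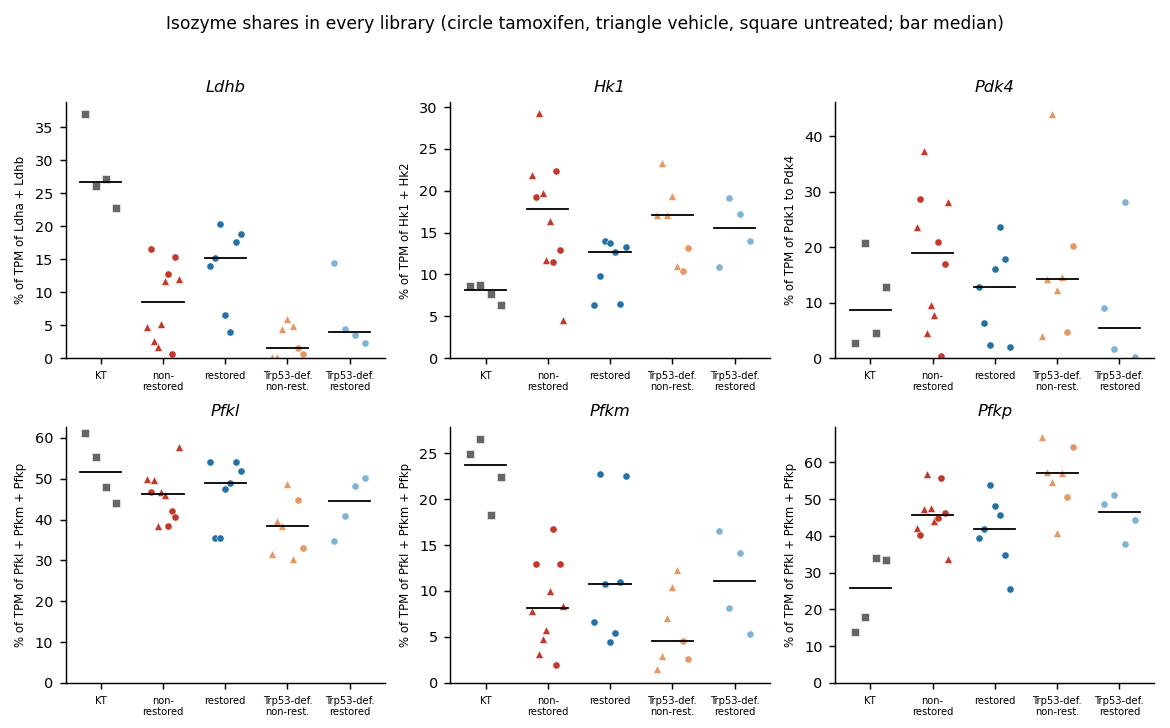
Share of each isozyme in the summed TPM of its family, in percent, for every library by group; bars are medians. *Ldhb* takes 22.8% to 37% in KT and at most 20.4% in any other group, *Pfkp* has medians of 25.8% in KT and 41.8% to 57.2% in the other groups, and *Pdk4* spreads widely within each group.

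In Trp53-deficient tumors, 4 restored libraries were compared with 4 non-restored animals. No member passed and no gene did (0% of 12516 tested, 23 with DESeq2). *Stk11* itself, the restored gene, missed the threshold in this fit (log2 difference 5.15, SE 0.57, edgeR adjusted p = 0.0587). A fit that does not call this change cannot show that a member did not change. At an unadjusted p below 0.05 stood 3 members, all higher in restored tumors, and 5.98% of all genes. They were *Pck2* (26 to 31.9 CPM against 12.3 to 21.9, difference 0.77, SE 0.21), *Pdk2* (23.6 to 30.6 against 10.9 to 19.5, difference 0.76, SE 0.22) and *Mpc2* (99.9 to 130 against 61.1 to 94.9, difference 0.45, SE 0.17), each with an adjusted p of 0.804. In these 3 the groups did not overlap, as in 3.64% of all genes (1.85% higher and 1.79% lower).

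*Eno1* measured 41.4, 152, 103 and 88.2 CPM in the 4 Trp53-deficient restored libraries and 106 to 203 in the non-restored animals, a difference of -0.71 (SE 0.35, 95% interval -1.41 to -0.02, adjusted p = 0.804). *Aldoa* differed by -0.51 (SE 0.32, adjusted p = 0.804). Trp53-deficient restored replicate 1 was the lowest of its group for 21 of the 38 members, *Eno1* and *Aldoa* (179 CPM) among them, and had the highest fibroblast marker sum (1097 CPM), whose part was not tested. The difference between the restoration effects in the 2 *Trp53* backgrounds was tested directly and passed for no gene (0% of 13706 tested, none with DESeq2); 3.08% of genes and 1 member, *Mpc1* (-0.55, SE 0.23), were at an unadjusted p below 0.05. For *Eno1* that difference was 0.58 (95% interval -0.28 to 1.44) and for *Aldoa* 0.32 (95% interval -0.44 to 1.08).

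**Figure D4:**
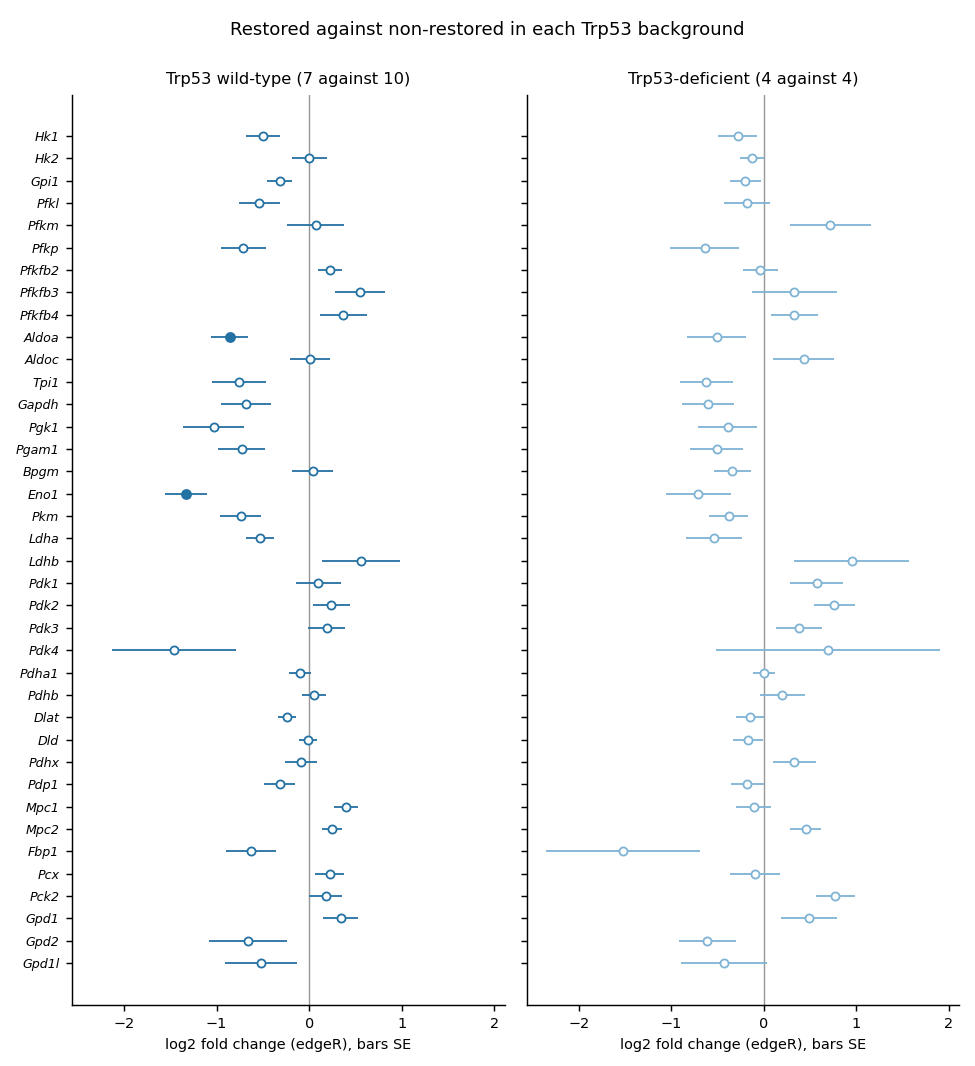
Log2 differences (edgeR) with bars of 1 SE of restored against non-restored tumors for the 38 tested members, in *Trp53* wild-type and Trp53-deficient tumors; filled points passed an adjusted p of 0.05. *Eno1* and *Aldoa* passed in *Trp53* wild-type tumors (-1.33 and -0.86), and no member passed in Trp53-deficient ones (-0.71 and -0.51 for these genes). In the Trp53-deficient fit the restored gene *Stk11* did not pass either.

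Trp53-deficient non-restored tumors differed from *Trp53* wild-type ones in 1 member, where 0.584% of 13706 genes passed, 0.365% higher and 0.219% lower. At an unadjusted p below 0.05 stood 6 members and 17.7% of all genes, and ranges of no member but of 0.686% of all genes failed to overlap. *Pdk2* (chr11:95026258-95041354, minus strand), a kinase of pyruvate dehydrogenase, measured 10.9 to 19.5 CPM in the 4 Trp53-deficient animals, with a median of 16.4, and 13.7 to 45.7, with a median of 34.2, in the 10 *Trp53* wild-type libraries, of which the lowest was replicate 8. *Pdk2* fell by 1.06 (log2, SE 0.25, edgeR adjusted p = 0.0468), with overlapping ranges, and passed in 8 of 23 alternatives. *Ldhb* differed by -1.62 (SE 0.61, adjusted p = 0.178). Without non-restored replicate 8, 5 members passed, where 1448 of 13429 genes did, in place of 80 of 13706. Of these members *Pdk2*, *Ldhb* and *Mpc2* were lower and *Pdha1* and *Gpd2* higher.

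Between the restored groups no member passed, where 0.372% of genes did (0.182% higher and 0.19% lower) and 7 members against 15.5% of genes stood at an unadjusted p below 0.05. *Pkm* measured 130, 164, 148 and 99.7 CPM in Trp53-deficient and 54.2 to 98.7 in *Trp53* wild-type restored tumors, without overlap, and differed by 0.92 (SE 0.25, adjusted p = 0.107); DESeq2 called it. *Fbp1*, the gluconeogenic phosphatase that opposes phosphofructokinase, measured 11, 17.1, 18.4 and 3.1 CPM against 25.8 to 45.6, also without overlap, and differed by -1.52 (SE 0.55, adjusted p = 0.205). Ranges did not overlap in 3.13% of all genes (1.58% higher and 1.55% lower in Trp53-deficient tumors).

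Genes around the pathway were read from lists. In non-restored against KT tumors 5.86% of all genes passed, 2.38% higher and 3.48% lower. Of 7 tested genes of glucose and lactate transport, 2 passed in non-restored against KT tumors, both lower: *Slc16a7*, a monocarboxylate transporter (-2.07, SE 0.48, adjusted p = 0.0132), and *Slc5a1*, a sodium-coupled glucose transporter (-1.87, SE 0.44, adjusted p = 0.0137). Of 11 tested related glycolysis genes *Galm*, which interconverts the forms of hexoses, passed (-0.75, SE 0.21, adjusted p = 0.0379), and among 16 TCA cycle genes the succinate dehydrogenase subunit *Sdhb* was higher (0.59, SE 0.17, adjusted p = 0.0364) and *Sdhc*, another subunit, lower (-0.51, SE 0.14, adjusted p = 0.0367). The medians of these 3 lists were 0.19, 0.20 and 0.12, against 0.03 for all genes. None of 7 pentose phosphate genes passed.

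Of 9 tested hypoxia genes 1 passed in non-restored against KT tumors, *Stc1*, a secreted glycoprotein, which measured 0 to 2.84 CPM in KT and 14.4 to 261 in non-restored libraries (log2 difference 5.88, SE 0.90, adjusted p = 0.000457; with KT at or near 0 the fitted size depends on the prior count). It measured 20.6 to 30.1 CPM in restored tumors, also above KT (4.26, SE 0.91, adjusted p = 0.037). The list median was 0.13 in non-restored against KT and -0.07 in restored against non-restored tumors, where none of the 9 passed. Among all genes, 5.86% passed in non-restored against KT tumors and 0.459% in restored against KT tumors. Of 7 tested regulators *Txnip*, an inhibitor of glucose uptake, fell between KT and non-restored tumors (-0.88, SE 0.23, adjusted p = 0.0263). None of 13 tested proliferation genes passed in restored against non-restored tumors, with a list median of -0.49, and this list's part in the values of the glycolytic genes was not tested.

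Counting could blur some members. Of the 40 genes 18 have at least 1 near-identical match outside their own locus. For *Eno2*, *Pfkl* and *Pdk1* among them the only match was a miRNA or misc_RNA gene with 0 counts. For *Gpd1* and *Pfkfb2* the only match was a gene overlapping them. Beside *Eno1* the copies drew 8% of the joint counts for *Gapdh*, 2.1% for *Pdhb*, 1.1% for *Gpi1* and under 1% for each of the others. A gene on the opposite strand overlaps 18 members, among them 6 that passed a test: *Pfkp* (*Pitrm1*), *Aldoa* (*Fam57b*), *Pfkfb3* (*Gm10851*), *Mpc1* (*4930506C21Rik*), *Pck2* (*Gm10876*) and *Pdk2* (*Gm11513*). Whether counting used strand is not given in the sources used here.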

How the data were processed

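RNA of tdTomato-positive neoplastic cells, sorted from lung tumors, was sequenced in 32 libraries. The authors aligned reads to mm10 with STAR 2.6.1d and estimated gene values with RSEM 1.2.30; whether counting used strand is not given in the sources used here. The deposited files hold expected counts, effective lengths and TPM per gene, as made by the authors. Deposited tables of the authors' own DESeq2 1.26.0 comparisons (log2 fold changes, p-values) and their normalized values were not used.

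Expected counts were rounded to whole numbers (on average 5.57% of values were not whole). Genes were filtered with filterByExpr, scaled by TMM and tested with edgeR 4.0.16 quasi-likelihood fits (R 4.3.3, limma 3.58.1), with Benjamini-Hochberg adjustment over all genes tested and a threshold of 0.05. The 3 groups with wild-type *Trp53* shared 1 fit, the Trp53-deficient groups another, and comparisons across *Trp53* status a fit of the 4 Lkb1XTR groups. Libraries of 1 Trp53-deficient animal, by title, were summed. CPM used TMM over the 32 libraries. Totals ran from 1302482 to 5943951 counts, and 3 counts, the floor used for a gene at 0, stood for 0.505 to 2.3 CPM, which covers counting error only. Alternatives were DESeq2 1.42.0, other scaling, filter, length offsets, copies summed, libraries left out, sex, arm, 2-group fits and a replicate block. Near-identical copies were transcripts matching at 90% identity over 50% of their length (blastn 2.17.0). The scripts were tested on simulated data.

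Members and lists were chosen with earlier results of these data known. Named are each member that passed, up to 12 others, first partners of those, and up to 3 passing genes per other list; *Pgk1*, *Pkm*, *Hk2*, *Fbp1* and *Gapdh* were chosen after their values were seen. The result of 1 gene of the TCA cycle list is not reported here. Replicate numbers were not used to pair samples, since same-numbered libraries did not deviate together in every pair. Promoters came from RefSeq (GRCm38.p6) and gene positions from GENCODE M21 (mm10).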

Additional observations from a re-analysis of the deposited data

Results flagged for a closer look

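Of 190 pairs of member and group, 15 held a value that stood apart from the rest of its group, where chance sets apart about 1 in 20. The pairs share libraries and are not independent, so no excess over that rate can be read from the count. Non-restored replicate 8 held 5 of them, all the highest of 10 libraries. *Pgk1*, phosphoglycerate kinase, measured 516 CPM there against 274 in the next library, *Pdha1* 231 against 162, *Dld*, a subunit of pyruvate dehydrogenase, 170 against 129, and the glycerol phosphate dehydrogenases *Gpd2* and *Gpd1l* 313 against 111 and 259 against 48.1. Without this library *Pgk1* differed by -0.71 between restored and non-restored tumors, in place of -1.03, and neither passed.

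KT replicate 4 was the highest KT library for *Eno1* (78.7 CPM against 56.5 in the next) and *Ldha* (787 against 656). In Trp53-deficient non-restored tumors, animal 2 was the highest for *Pfkm* (7.47 against 3.1 CPM), *Pdhb* (99.4 against 57) and *Dlat*, another pyruvate dehydrogenase subunit (84.8 against 75.3), and animal 4 for *Gpd1l* (138 against 50.5). In Trp53-deficient restored tumors, replicate 3 was the lowest for *Pfkfb2* (60.7 against 93.5 CPM) and *Pfkfb4* (10.8 against 19.5) and the highest for *Gpd1* (48.6 against 26.9), and replicate 1 was the lowest for *Pdha1* (152 against 175).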

How the results depend on the processing

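Of 6077 values of members under alternatives, 5967 kept their direction and side of the threshold or stayed below it. Of the rest 85 fell below it and 25 passed it, and 0 of the called ones reversed. Signs changed in 270 values that had not passed. Most of the 6077 values belonged to members that had not passed and so could not fall below the threshold. In non-restored against KT tumors 65 of the 85 losses occurred, and *Pck2* stayed past the threshold in 11 of 24 alternatives. In restored against non-restored tumors *Eno1* stayed past it in 27 of 27. Causes were not tested unless a setting removes samples.

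Restored against non-restored, 236 genes and 2 members passed; DESeq2 called 467 and 5, tamoxifen non-restored libraries alone 50 and 1, and vehicle libraries alone 5 members. Leaving out 1 library gave 145 to 319 genes and 1 to 3 members, with 1 member without restored replicate 1 (157 genes), 2 (155), 3 or 7 (145). With length offsets 60.7% of called genes were higher, in place of 52.1%.

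Non-restored against KT, 741 genes and 9 members passed; female libraries alone gave 132 and 3, tamoxifen libraries alone 280 and 3, no filter 4 members and a fit of the 2 groups 5. Leaving out 1 library gave 340 to 951 genes and 3 to 11 members, with 3 members without KT replicate 4 (459 genes), 4 when KT replicate 1 (340), 2 or 3 (418) was dropped, 4 when non-restored replicate 3 was, and 5 when its replicate 1 was. Female libraries alone had 22% of called genes higher, in place of 40.6%.

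Restored against KT, 58 genes passed, with DESeq2 168 (42.3% higher, in place of 27.6%) and female libraries alone 10; leaving out 1 library gave 21 to 57 genes and 0 members, the lowest without KT replicates 1 (21) and 4 (22) and restored replicate 1 (37).

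In Trp53-deficient tumors 0 genes passed, with DESeq2 23, no filter 3, length offsets 1 and libraries as units 1; leaving out 1 gave 0 to 1 genes and 0 members. The difference between *Trp53* backgrounds gave 0 genes, 1 with female and 1 with vehicle libraries alone, and 0 to 1 genes and 0 members without 1 library.

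Between non-restored groups 80 genes and 1 member passed; DESeq2 called 419 genes (43.9% higher, in place of 62.5%), libraries as units 465, vehicle libraries alone 179, female libraries 43 and tamoxifen libraries 34, and no filter, length offsets, female and tamoxifen libraries each left 0 members. Leaving out 1 gave 26 to 1448 genes and 0 to 5 members: 1448 and 5 without non-restored replicate 8, 301 genes without replicate 4, 162 without Trp53-deficient animal 2, and 0 members without non-restored replicate 1, 2, 3, 5, 6, 7, 9 or 10 or animal 1, 3 or 4. Between restored groups 51 genes passed, with DESeq2 216 and 1 member, and 25 to 64 genes and 0 members without 1 library, the lowest without Trp53-deficient restored replicate 3.

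With the replicate block, 270, 705 and 67 genes and 3, 9 and 1 members passed in restored against non-restored, non-restored against KT and restored against KT tumors, *Pfkp* being added in the first and last, and *Pgk1* gained and *Mpc1* lost in the second (5 higher and 4 lower, in place of 4 and 5). The numbers do not pair the libraries: correlations of same-numbered deviations were 0.0478 to 0.501, -0.0285 to 0.13 and -0.0547 to 0.0832, and libraries correlated best with their own number in 1 of 7, 1 of 4 and 2 of 4 cases.

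Differences from KT rest on 4 libraries, whose median total was the lowest of the groups. Low members such as *Pfkm* are limited by depth.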
